A study of Rattus norvegicus with 3 samples.

Results

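The regions described here are 38272 array probes whose signal was not well above background in any of 6 rats, out of 389347 probes that are not controls (9.83%). They were chosen by a mark that the scanner software gives each spot in each dye: a probe was taken where the mark for a signal well above background was absent in both dyes on all 3 arrays, and where no spot was marked as an outlier. The signals that chose them, and the ratios and calls made from these signals, are therefore given as a description only. No test was made of the set, and calls are counts from a fit over all probes.

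Male Sprague-Dawley rats, 8 weeks old and weighing 250 to 300 g, underwent a tenotomy of the Achilles tendon in both groups. The PM group was then exposed to particulate matter of the PM2.5 class 3 times per week for 6 weeks, and the non-PM group was not exposed. Tendon DNA of 3 rats per group was fragmented, enriched for methylated fragments, amplified and hybridized to a custom array. Every array carried DNA from 1 rat of each group, the PM rat always in Cy5 and the non-PM rat always in Cy3, so that exposure and dye cannot be told apart. The first 2 arrays shared a slide, and array 3 was on another. PM 1 and non-PM 1 denote the rats on array 1, and the others are named likewise.

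In mammals, DNA methylation is mostly the addition of a methyl group to cytosine in the dinucleotide CpG. Most CpG sites of somatic cells are methylated, while CpG islands at the promoters of many widely used genes are usually free of it. The enrichment used MBD2bt, a form of the methyl-CpG-binding protein MBD2, which holds on to fragments with methylated CpG sites. A region gives little signal in such an assay where its CpG sites are unmethylated, where it has few CpG sites, or where its fragments amplify or hybridize poorly. These cannot be told apart from the signal alone, and neither can the cells of a bulk tendon that carry a mark. The scanner files name each probe only by its number, so no gene, position or sequence is given for the probes below.

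The signals of non-PM 1 and non-PM 2 stood apart from those of the 4 other rats. Across the 38272 probes, background-subtracted intensities of non-PM 1 and non-PM 2 had a Pearson r of 0.415. Those of PM 1, PM 2, PM 3 and non-PM 3 had r between 0.286 and 0.441 with each other. Between the 2 sets of rats, r was 0.141 to 0.190. The 4 rats come from both groups, both dyes and both slides. Non-PM 1 and non-PM 2 were the Cy3 rats of the slide that arrays 1 and 2 shared. Rat, group, dye and slide cannot be told apart for them, and the cause was not tested. Over the 1182 negative control spots, r between any 2 channels was between -0.040 and 0.070. Probes share an array and are not independent replicates, so these are descriptions.

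Because of this, the rule was also applied to PM 1, PM 2, PM 3 and non-PM 3 alone, an alternative chosen after seeing the data. It gave 86096 probes (22.1%), of which 44.5% were also without the mark in non-PM 1 and non-PM 2. A further 32401 of the 86096 (37.6%) carried the mark in both non-PM 1 and non-PM 2. In the other direction, 65026 probes (16.7%) lacked the mark in non-PM 1 and non-PM 2, and 6566 of them (10.1%) carried it in all 4 other rats.

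Counted by group, 114776 probes (29.5%) lacked the mark in all 3 PM rats and 42651 (11.0%) in all 3 non-PM rats. The 38272 probes are 33.3% of the first set and 89.7% of the second. A probe dim in the 3 non-PM rats was therefore mostly dim in the PM rats too, while the opposite held for about 1 probe in 3. The mark is set at a higher intensity in Cy5 than in Cy3, and the part of the dye in this difference was not tested.

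The limit behind the mark could be read from the intensities. In PM 1, PM 2 and PM 3, the lowest background-subtracted intensity with the mark was 17.5, 16.5 and 17.2. In non-PM 1, non-PM 2 and non-PM 3, it was 9.90, 10.3 and 9.86. In each channel the highest unmarked intensity lay just below this value, so the mark acts as a fixed limit per channel. The share of all probes under it was 46.5%, 41.5% and 39.7% in PM 1, PM 2 and PM 3, and 18.0%, 26.3% and 28.7% in non-PM 1, non-PM 2 and non-PM 3. Non-PM 1 had the fewest probes under its limit.

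The 38272 probes were dim but, as a set, brighter than the negative control spots, which are designed to bind no rat sequence. Their median background-subtracted intensity was 3.59, 4.37 and 5.19 in PM 1, PM 2 and PM 3, and 4.08, 3.02 and 3.97 in non-PM 1, non-PM 2 and non-PM 3. The median of the negative control spots lay between -0.069 and 0.141 in the 6 channels. Intensities above 0 were found for 78.9%, 81.9% and 83.4% of the probes in PM 1, PM 2 and PM 3, and for 90.8%, 86.5% and 89.4% in non-PM 1, non-PM 2 and non-PM 3. The name "without detectable capture" therefore holds for the mark used by the rule, and not for the signal as such.

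A weaker mark of the same software, for a signal that is positive and significant against background, gave the same picture. It was present for 50.9%, 58.7% and 62.0% of the 38272 probes in PM 1, PM 2 and PM 3, and for 74.0%, 63.6% and 72.4% in non-PM 1, non-PM 2 and non-PM 3. Among negative control spots it was present for 16.6% to 18.2%. Only 1015 of the 38272 probes (2.65%) lacked this mark in all 6 rats.

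Set against the negative control spots directly, 4035 probes (10.5%) had an intensity at or below the 95th percentile of these spots in each of the 6 channels. Intensities above that percentile in 1, 2 and 3 channels were found for 6260, 7702 and 7835 probes. Another 6537 probes exceeded it in 4 channels, 4268 in 5 and 1635 (4.27%) in all 6. The last set thus stayed under the limit of the mark in every rat while exceeding most negative control spots in every rat. With the 99th percentile, 9983 probes (26.1%) were at or below it throughout.

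Relative to all probes, the median intensity of the 38272 probes was 0.182, 0.20 and 0.204 times the median of all probes in PM 1, PM 2 and PM 3. It was 0.123, 0.133 and 0.197 times in non-PM 1, non-PM 2 and non-PM 3. The gap was widest in non-PM 1 and non-PM 2, where the median over all probes was 33.2 and 22.8. The rule bounds these ratios, since every intensity of the set lies under the limit of its channel. That limit was 9.86 to 10.3 in the non-PM rats and 16.5 to 17.5 in the PM rats. Brightness also depends on how well a probe binds, so these ratios are no measure of methylated DNA.

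The probes varied in how far they lay from the limit. In 9730 of them (25.4%), all 6 intensities were below 0.5 times the limit of their channel. In 6141 (16%), at least 1 intensity was within 10% of its limit. The faintest by the highest of its 6 intensities was CUST_RP21080839, with -2.69, -1.88 and -4.14 in PM 1, PM 2 and PM 3 and -3.34, -5.22 and -1.66 in non-PM 1, non-PM 2 and non-PM 3. The next was CUST_RP21361815, with -2.36, -1.30 and -1.72 in the PM rats and -2.12, -2.63 and -1.39 in the non-PM rats. Both were below 0 after background subtraction in every rat.

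The middle probe in this order, CUST_RP21049474, had 4.25, -0.305 and 3.06 in PM 1, PM 2 and PM 3 and 8.67, 6.54 and 6.74 in non-PM 1, non-PM 2 and non-PM 3. Its non-PM intensities all exceeded the 3 PM intensities, but they are in another dye and none passed its limit. The 2 highest probes in this order had that intensity in PM 1, whose limit was the highest. CUST_RP21156333 had 17.48, 10.8 and 12.4 in the PM rats and 7.53, 5.81 and 9.11 in the non-PM rats. CUST_RP21258808 had 17.43 in PM 1 but -0.248 and -1.70 in PM 2 and PM 3, with 7.04, 6.25 and 2.38 in the non-PM rats. Both were close to the limit in PM 1, and the second was below 0 in PM 2 and PM 3.

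Just outside the rule were 24274 probes (6.23%) that carried the mark in exactly 1 of the 6 channels. That channel was non-PM 1 for 13967 of them (57.5%), non-PM 3 for 5316 (21.9%) and PM 3 for 2255 (9.29%). It was non-PM 2 for 1460, PM 2 for 970 and PM 1 for 306. A single rat, non-PM 1, therefore kept more probes out of the set than the other 5 together. For comparison, 156453 probes (40.2%) carried the mark in all 6 channels.

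Of the probes marked in 1 channel, those with the lowest marked intensity were CUST_RP21274973 and CUST_RP21194923, both marked in non-PM 3 alone. This order uses the intensity itself and not its distance from the limit, so it favors non-PM 3, whose limit was the lowest. The first had 9.86 in non-PM 3, with 4.51 and 2.98 in non-PM 1 and non-PM 2 and 8.58, 7.69 and 9.35 in PM 1, PM 2 and PM 3. The second also had 9.86 in non-PM 3, with 4.67 and 4.71 in non-PM 1 and non-PM 2 and 11.2, 5.84 and 8.60 in the PM rats. At the far end, CUST_RP21278103 had 196 in non-PM 1 but 0.155 and 4.59 in non-PM 2 and non-PM 3, and 6.23, 11.4 and 2.02 in the PM rats, so that its bright signal came from 1 rat.

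To see whether low signal recurs in rats that did not choose the probes, the rule was applied to 2 arrays and read on the array left out. Of 52922 probes unmarked on arrays 2 and 3, 72.3% were also unmarked in both channels of array 1, against 15.2% of all probes on that array. Of 40798 unmarked on arrays 1 and 3, 93.8% were unmarked on array 2, against 19.1% of all probes. Of 49852 unmarked on arrays 1 and 2, 76.8% were unmarked on array 3, against 25.2%. Low signal thus recurred on the array left out in most cases. Arrays 1 and 2 shared a slide, and the marks are those that the rule used, so these shares are a description.

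The probes were not spread evenly over the probe numbers of the design, which the rule did not use. How these numbers relate to the genome is not given in the sources used here. The probe with the next number also belonged to the set for 28.0% of the 38272 probes, compared with 9.83% of all probes. The set fell into 27567 runs of consecutive numbers, of which 20890 were single probes. The other 6677 runs held 17382 probes (45.4%), and 60 runs held 10 or more.

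A stretch of numbers, noticed after seeing the data, held many of these runs. In blocks of 1000 consecutive numbers, the median share of the set was 8.80%, but 10 blocks in a row, from number 361001 to 371000, each held over 2 times the overall share. These 10000 probes are 2.57% of all probes and held 4925 of the set (12.9%). The start was abrupt at a resolution of 250 numbers: the share was 9.60% from 361251 to 361500, 71.6% from 361501 to 361750 and 89.6% from 361751 to 362000.

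After that the share declined. It was 84.6% in the block starting at 362001, then 73.1%, 64.0%, 56.6%, 49.7%, 38.7%, 33.2% and 26.3% in the following blocks, and 21.2% in the block starting at 370001. The median intensity of all probes in a block rose over the same blocks at each step and in each of the 6 channels. From the block starting at 362001 to that starting at 370001, it went from 2.45 to 11.3 in PM 1, from 3.27 to 13.4 in PM 2 and from 3.84 to 16.7 in PM 3. It went from 2.34 to 10.5 in non-PM 1, from 1.73 to 7.96 in non-PM 2 and from 3.10 to 11.8 in non-PM 3.

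The stretch was picked for its share of the set, so its low signal in each rat follows from that choice and is a description. Over all its probes, the median intensity was 6.08, 7.50 and 8.74 in PM 1, PM 2 and PM 3 and 5.59, 4.33 and 6.36 in non-PM 1, non-PM 2 and non-PM 3. Outside the stretch it was 20.4, 22.5 and 26.3 in the PM rats and 34.4, 23.6 and 20.9 in the non-PM rats. Non-PM 1 and non-PM 2 thus had the lowest medians inside it, although non-PM 1 had the highest outside. The share of probes without the mark inside the stretch was 83.0%, 78.3% and 73.0% in PM 1, PM 2 and PM 3 and 69.3%, 79.1% and 67.4% in non-PM 1, non-PM 2 and non-PM 3. Outside it, the shares were 45.6%, 40.5% and 38.8% in the PM rats and 16.7%, 24.9% and 27.6% in the non-PM rats. On the array surface its probes ran from the first to the last row and column, with the same median row and column as all probes, so the stretch was spread over the whole grid.

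The end of the stretch was set by the limit of 2 times the overall share, and the decline went on past it. The share was 19.5% in the block starting at 371001 and 10.5% in that starting at 372001. At the first of these blocks the median intensity fell in non-PM 2, from 7.96 to 7.78, and rose in the other channels. The blocks from 373001 to 380000 held few probes of the set, between 1.1% and 4.3%. Median intensities there reached 69.9 in PM 1 and 146 in non-PM 1 in the block starting at 379001. The only other blocks over 2 times the overall share were those starting at 81001 (23.5%) and 82001 (25.6%). In these blocks the median over all probes was 5.31 and 5.14 in PM 1, 5.09 and 5.66 in PM 2 and 4.26 and 5.01 in PM 3. It was 35.4 and 34.0 in non-PM 1, 21.6 and 22.3 in non-PM 2 and 12.9 and 11.7 in non-PM 3. Only the PM rats were thus as dim there as in the stretch, and non-PM 3 lay between the PM rats and the other non-PM rats.

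The longest run of the set ran over 50 probes, from CUST_RP21362013 to CUST_RP21362062. Their median intensities were 1.1, 2.77 and 4.06 in PM 1, PM 2 and PM 3 and 1.75, 1.25 and 3.08 in non-PM 1, non-PM 2 and non-PM 3. The second longest held 48 probes, from CUST_RP21361731 to CUST_RP21361778, with medians of 1.94, 1.97 and 2.84 in the PM rats and 1.52, 1.68 and 2.38 in the non-PM rats. Both lie in the stretch, and their single intensities ranged from -10.6 to 14.9. Within the longest run, CUST_RP21362016 had -2.81, -1.25 and -1.19 in the PM rats and 0.271, -0.390 and -2.77 in the non-PM rats. CUST_RP21362018, close to it in number, had 8.03, 10.1 and 9.72 in the PM rats and 3.46, 3.45 and 9.43 in the non-PM rats. Both were chosen from the run after their values were seen. Of the latter's intensities, that in non-PM 3 was the one close to its limit.

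Outside the stretch, the next-numbered probe belonged to the set for 23.2% of 33347 probes, against 8.79% of the probes there. The share was 16.5% at a distance of 2 numbers, 14.2% at 3, 12.1% at 5, 9.76% at 10 and 9.59% at 100, so the likeness of neighbors faded within about 10 numbers. After a probe outside the set, 7.40% of the next probes belonged to it. The longest runs there held 19 probes, from CUST_RP21021061 to CUST_RP21021079, and 18 probes, from CUST_RP21275393 to CUST_RP21275410. Their median intensities were -1.55, 1.02 and 2.32 and 3.45, 0.747 and 2.16 in PM 1, PM 2 and PM 3. In the non-PM rats they were 2.48, 1.49 and 0.836 for the first run and 1.85, 0.866 and 1.63 for the second.

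Neighbors of single probes of the set were themselves somewhat dim. Of the 39545 probes next to a single probe of the set, 34.2% carried the mark in all 6 channels, compared with 44.6% of all probes outside the set. Marks in only 1 or 2 channels were found for 28.4% of these neighbors and for 19.7% of all probes outside the set. Their median intensity was 17.6, 20.1 and 25.01 in PM 1, PM 2 and PM 3 and 20.8, 14.8 and 19.1 in non-PM 1, non-PM 2 and non-PM 3. Over all probes outside the set, it was 23.5, 25.8 and 30.6 in the PM rats and 38.5, 26.4 and 23.9 in the non-PM rats. The gap was thus wider in non-PM 1 and non-PM 2 than in the other 4 rats.

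Over the array surface, the set was read in bands far larger than the blocks of probe numbers, so evenness is not compared between them. With the columns divided into 4 equal bands, it made up 11.2%, 9.50%, 9.34% and 9.29% of the probes from the first to the last band. With the rows divided likewise, it made up 9.78%, 9.69%, 9.63% and 10.2%. In columns 1 to 20 the share was 13.1%, and 12% without the stretch. All 6 channels had more unmarked probes in these columns than on the whole array, such as 22.7% against 18.0% in non-PM 1 and 35.2% against 28.7% in non-PM 3. At the outer edge of the grid, 10.7% of 2687 probes belonged to the set. The part of the surface in the choice of single probes was not tested.

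The PM/non-PM ratios of these probes compare 2 signals that are both under their limits, so no fold is given for any of them. Across the 38272 probes, the loess-normalized log2 ratios of arrays 1 and 2 had a Pearson r of 0.209 and a Spearman rho of 0.204. Those of arrays 1 and 3 had r = 0.068 and rho = 0.084, and those of arrays 2 and 3 had r = 0.072 and rho = 0.090. Over all probes r was 0.830, 0.218 and 0.221 for the same pairs. The ratio had the same sign on all 3 arrays for 28.8% of the set and 49.2% of all probes. These shares were 38.1% and 52.7% with median centring, and 37.5% and 52.3% with the deposited ratios.

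The spread of the ratios also follows from signals that the rule used. Their SD across the set was 0.99, 0.99 and 0.84 on the log2 scale on arrays 1, 2 and 3. It was 1.76, 1.72 and 0.99 over all probes and 1.70, 1.61 and 0.63 over the probes marked in all 6 channels. A ratio beyond 2-fold on array 3 was about as common in the set (23.6%) as over all probes (22.7%), but among the probes marked in all 6 channels it was found for 9.59%. On arrays 1 and 2, a ratio beyond 2-fold was found for 29.8% and 34.3% of the set and for 60.8% and 59.7% of all probes. Among the probes marked in all 6 channels it was found for 61.1% and 58.1%. With median centring in place of loess, the shares of the set were 46.5%, 32.1% and 24.2% on arrays 1, 2 and 3. Those of all probes were then 63.8%, 60.8% and 24.5%. The software had set its own log ratio to exactly 0 for 23.7%, 19.2% and 19.1% of the set on arrays 1, 2 and 3. It had done so on all 3 arrays for 1504 probes of the set (3.93%). Over all probes, the shares were 2.51%, 2.07% and 3.47% on the single arrays and 0.386% on all 3.

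In limma over all probes, none passed an adjusted p of 0.05 (0.0%), and so none of the set did. At an unadjusted p of 0.05, 2703 probes of the set (7.06%) were called, beside 28.4% of all probes. Of these, 2632 (6.88% of the set) were higher in PM, beside 12.9% of all probes, and 71 (0.186%) were lower in PM, beside 15.6%. The deposited ratios were at least 2-fold higher in PM on all 3 arrays for 827 probes of the set (2.16%), beside 1.38% of all probes. They were at least 2-fold lower for 60 (0.157%), beside 6.79%. The signals that chose the set are those of this contrast, so nothing is read from these counts.

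The counts under other settings are given in the same way, with nothing read from them. The rule admits brighter signals in Cy5 than in Cy3. The part of this in how many called probes of the set were higher or lower in PM was not tested. Of the called probes of the set, 2.63% were lower in PM after loess, beside 54.8% of all called probes, but 39.0% were with the software's log ratio, beside 66.2%. It was 26.7% without array 3, beside 50.04%, and 0.0% without array 1 or array 2, beside 75.1% and 70.1%. The software's log ratio called 1639 probes of the set (4.28%), beside 28.6% of all probes. With a normexp correction and an offset of 50, 24 of the set were called, beside 21.9% of all probes. With the slide as a block, 5929 of the set (15.5%) were called at the unadjusted threshold, beside 39.5% of all probes, and 451 at the adjusted p, beside 9.28%. Within slide 1 alone, 7073 of the set (18.5%) were called at the unadjusted threshold, beside 56.9% of all probes, and 4013 at the adjusted p, beside 46.7%. Slide 2 held 1 array, which allows no test. Leaving out array 1 gave 829 called probes of the set (2.17%), beside 9.93% of all probes. Leaving out array 2 gave 841 (2.20%), beside 9.9%.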

How the data were processed

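Captured tendon DNA of 3 PM rats (Cy5) and 3 non-PM rats (Cy3) was hybridized in pairs to 3 custom arrays. Groups and dyes were taken from the labels and the methods. The members and lists were chosen with earlier results of these data known.

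The authors deposited the intensity of each spot from Agilent Feature Extraction (version 11.5.1.1, from the submitters' processing notes) as median, background-subtracted and processed intensity, the latter linearly dye-normalized. They also deposited a log10 ratio, Cy5 over Cy3, of the processed signals. The authors also deposited linear PM/non-PM ratios after LOWESS normalization. Their column medians were 0.959, 1.02 and 1.02, and their log2 values had r of 0.999, 0.999 and 0.996 with the loess ratios of the same array, which gave their scale and direction; the LOWESS settings are unknown. Marks for control spots, outliers and background, and rows and columns, were taken from the deposited files as unitless values (other values).

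Spots of controls were removed. Probes with an outlier-marked spot (94 probes, none otherwise in the set) were excluded from the set, but kept in the shares of all probes. The ratios of their marked spots were set to missing before the loess and the main fit. Within each array, log2 ratios of the processed intensities went through loess (limma 3.58.1, R 4.3.3; span 0.3). lmFit and eBayes were fitted to an intercept over the 3 ratios of all 389347 probes, with Benjamini-Hochberg adjustment across all probes. The fit was tested on simulated data. Descriptions used pandas 2.3.3, numpy 2.4.6 and scipy 1.17.1. The number of arrays limits the precision. The 2 rats of an array are paired by their hybridization together, and the ratio holds that pairing. Replicates are separate rats.

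Probes were named by rule: the 2 longest runs of consecutive numbers; by the highest of 6 background-subtracted intensities, the 2 lowest, the middle and the 2 highest; and, among probes marked in exactly 1 channel, the 2 whose marked intensity was lowest and the 1 whose was highest. The 2 longest runs outside the stretch and 2 probes within the longest run were added after seeing the data.

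Alternatives were other arrays, marks and limits from negative control spots for the set, and other normalizations, tests and designs for the ratios. Gene lists, cell type markers, sequence and position were not run, since 0 probes carry a name other than their number.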

Additional observations from a re-analysis of the deposited data

How the results depend on the processing

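The number of probes in the set (38272) was between 40798 and 52922 when 1 array was left out of the rule, within 1.5 times the main count, and it was the same with outlier-marked spots kept. It was 1015 with the mark for a positive and significant signal, and 4035 or 9983 with the 95th or 99th percentile of negative control spots as the limit. It was 86096 from PM 1, PM 2, PM 3 and non-PM 3 alone, chosen after seeing the data. These limits differ by construction.

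The 2703 probes of the set past the unadjusted threshold in limma (beside 28.4% of all probes) numbered 1639 with the software's log ratio (beside 28.6%), 24 with normexp (beside 21.9%) and 5929 with the slide as a block (beside 39.5%). They numbered between 829 and 7073 when 1 array was left out (7073 without array 3, beside 56.9%, and 829 without array 1, beside 9.93%). With the pairing by array removed (no replicate block, 6 channels), they numbered 2757 (beside 25.9%). Median centring, a loess span of 0.2, the deposited ratios and the methods' t-test in its one-sample form gave between 2079 and 2940, beside 32.0%, 27.4%, 28.9% and 10.9% of all probes. By the t-test, 2406 of the set were called, and 0 after Benjamini-Hochberg. These counts rest on signals that chose the set, so nothing is read from them. The cause was not tested. A filter on probes well above background leaves none of the set, so it gave no value.

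The share whose next number was also in the set (28.0%) was between 28.6% and 34.1% when 1 array was left out. It was 7.68% with the 95th percentile of negative control spots, where the set made up 1.04% of all probes. It was 37.4% from PM 1, PM 2, PM 3 and non-PM 3 alone, against 22.1% of all probes, and 23.2% without the stretch of probe numbers. The share in columns 1 to 20 (13.1%) was 12% without the stretch. Each of these shares was above the overall share of the same set. The stretch was chosen after seeing the data.

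For arrays 1 and 2, 1 and 3, and 2 and 3, the r of the ratios (0.209, 0.068 and 0.072) was 0.239, 0.031 and 0.022 with median centring and 0.208, 0.102 and 0.107 with the deposited ratios. The median signal of the set over that of all probes was 0.182 in PM 1 and 0.186 with processed intensity, and it moved less in the other 5 channels. Signal over background limits all ratios of the set. Gene lists, cell type markers, and sequence and position were not run.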
